A study of Homo sapiens with 12 samples.

Results

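Genes of the lysosome and of autophagy were followed in the human breast cancer cell line MDA-MB-231, which is triple-negative and established, after treatment with TGFβ, the Aurora A kinase inhibitor alisertib, or both. The set holds 42 named genes, taken by symbol from a table of read counts for 57773 genes. They comprise 10 cathepsins, 11 other hydrolases, 3 luminal proteins that are not enzymes, 5 membrane proteins, the 3 transcription factors TFEB, TFE3 and MITF, and 10 genes of the autophagy machinery. All 42 passed the filter on low counts, as did 20571 genes in all. RNA was sequenced in 12 libraries, 3 in each of 4 groups: cells given TGFβ for 48 h, cells given alisertib for 48 h, cells given both agents for 48 h, and untreated cells. Every group was grown in DMEM with serum, and no dose is stated in the labels. A single cell line was used, and the labels do not state whether libraries of the same group are separate cultures. The p-values below therefore measure only the spread between these libraries, which may be technical.

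The lysosome is the acidic compartment in which cells degrade proteins, lipids, glycans and nucleic acids. Cathepsins are its proteases, glycosidases, sulfatases and lipases take apart sugars and lipids, and heavily glycosylated membrane proteins such as LAMP1 and LAMP2 line the limiting membrane. Autophagy delivers cytoplasm to it: the ULK1 kinase complex starts the process, WIPI proteins and ATG9A help to build the double membrane, and LC3-type proteins (MAP1LC3B, GABARAPL1) are attached to it and bind cargo receptors such as SQSTM1. TFEB, TFE3 and MITF are related helix-loop-helix factors that bind the sequence CACGTG in promoters of many lysosomal genes, and mTORC1 at the lysosomal surface keeps TFEB in the cytoplasm of fed cells.

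Each library held between 93701658 and 120619368 counted reads, of which the 42 genes took between 0.464% and 0.593%. In every group 1 library stood apart from the other 2: TGFβ replicate 6, alisertib replicate 9, combination replicate 10 and untreated replicate 1. Over 13824 genes, their deviations from the mean of the group were lower the richer a transcript was in GC, with Spearman's rho of -0.697, -0.647, -0.734 and -0.705 in that order. Over the 42 members the same 4 values were -0.808, -0.705, -0.895 and -0.836. The GC-rich members CTSD, GAA, GRN and ULK1 were each lowest in that library of every group, and ARSA was so in 3 groups but not in alisertib replicate 9. These libraries hold 1 sample of each group, so no comparison can be made among them, and the counts of members called are given below with and without them. They were picked from these same data for their deviation, so leaving them out lowers the spread within groups by selection. The p-values of a fit without them are therefore too small, and its calls are given as description only. Among markers of the line, VIM ranged from 1224 to 2133 CPM (read counts relative to the TMM-scaled library size) and CD44 from 1120 to 1903 CPM. ERBB2 was read at 48.5 to 73.2 CPM. The luminal genes ESR1, PGR and FOXA1 stayed at or below 0.0581 CPM. Other luminal genes were present: GATA3 at 3.35 to 7.58 CPM, EPCAM at 12.7 to 19.7 CPM, and 2 keratins given below. The libraries were unstranded, so reads from exons that overlap on either strand cannot be told apart. The loci of 17 members, from start to end with introns, overlap another tested gene, and for 11 of them that gene averaged at least 20 CPM. Whether their exons overlap was not examined, so reads are not known to be shared. The highest were RPL36A-HNRNPH2 on GLA (302 CPM), PSME3 on BECN1 (230 CPM), RP11-295K3.1 on CTSD (169 CPM), MGAT4B on SQSTM1 (149 CPM), RP11-120M18.2 on WIPI1 (66.0 CPM), MIR4709 on NPC2 (61.3 CPM), IFIT3 on LIPA (52.5 CPM) and PNPLA6 on MCOLN1 (44.5 CPM), and the others were on HEXA, ATG7 and ATG9A. The luminal keratins KRT8 and KRT18 were read at 223 to 332 CPM and 262 to 339 CPM.

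Levels of different genes were compared per length, in the RPKM values that the authors deposited. In untreated cells PSAP, the precursor of the saposins that assist lipid hydrolases, was highest at 222 ± 20.01 RPKM (SD, n = 3). The carboxypeptidase CTSZ followed at 168 ± 9.70 RPKM, the aspartic protease CTSD at 123 ± 37.4 RPKM, the tetraspanin CD63 at 72.3 ± 2.16 RPKM and the cholesterol carrier NPC2 at 61.8 ± 2.61 RPKM. The untreated libraries ranged from 157 to 176 RPKM for CTSZ and from 80.1 to 148 RPKM for CTSD, so these neighbours did not overlap, while ULK1 (0.577 to 0.879 RPKM) and TFEB (0.539 to 0.801 RPKM) did. At the other end stood ARSA with 1.26 ± 0.360 RPKM, ULK1 with 0.736 ± 0.151 RPKM and TFEB with 0.689 ± 0.135 RPKM. The median tested gene had 2.20 RPKM in the untreated cells. Over all 12 libraries, PSAP was above 99.5% of the tested genes, CTSZ above 99.2% and TFEB above 38.7%.

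**Figure D1:**
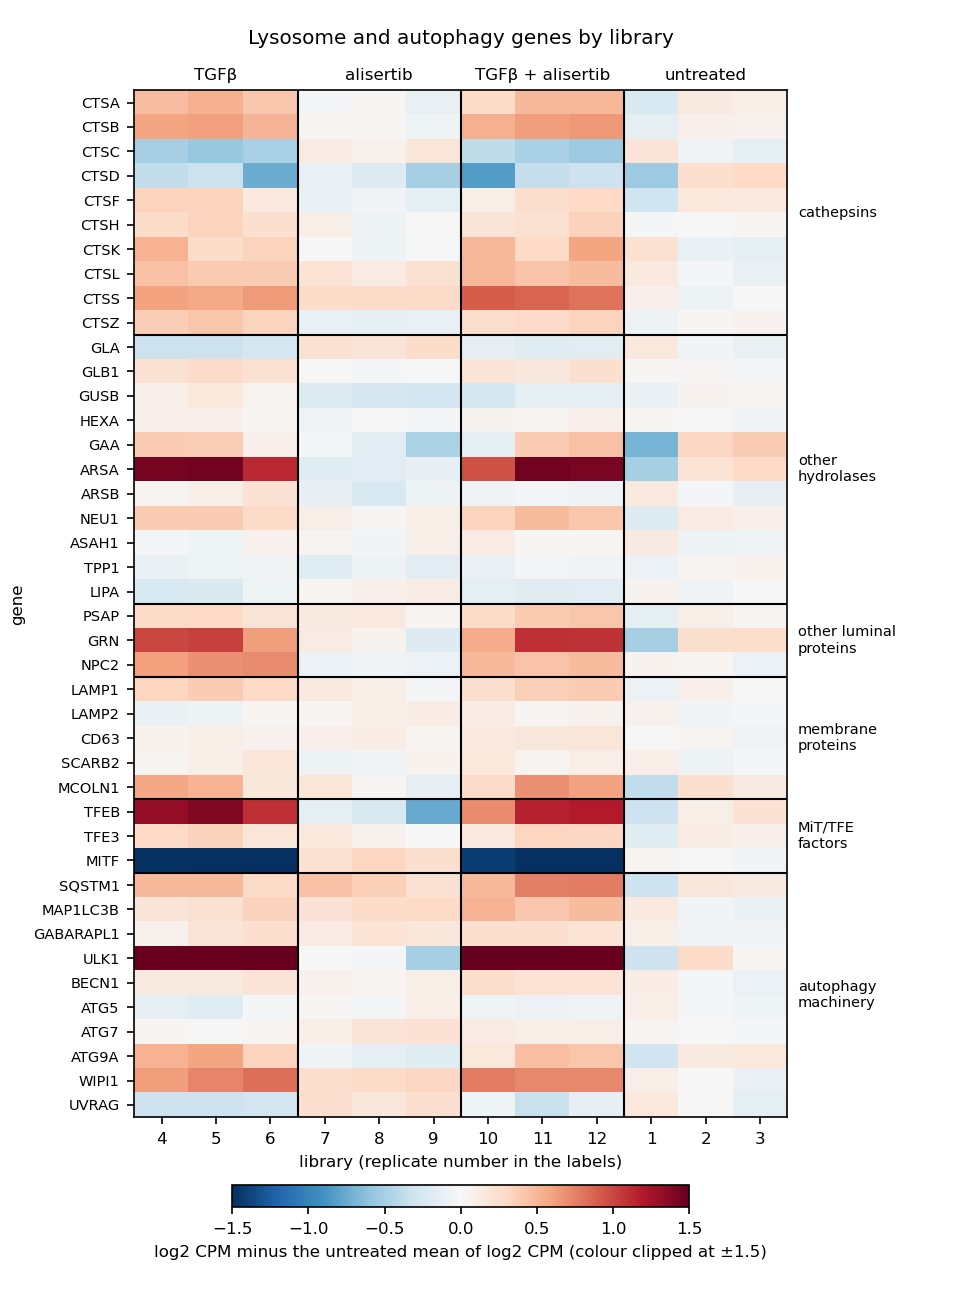
Level of each of the 42 genes in each library, as log2 CPM minus the mean log2 CPM of the untreated libraries, with genes down the page by role and libraries across by group. ULK1 and ARSA are darkest red and MITF darkest blue in the 6 libraries with TGFβ. TFEB and GRN are also red there, and ARSA, TFEB and GRN are paler in libraries 6 and 10. The columns of alisertib alone stay pale, and the 4 libraries that stand apart (6, 9, 10 and 1) differ from their neighbours.

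TGFβ moved most of the set. Against untreated cells 23 of the 42 genes rose and 5 fell at an adjusted p under 0.05, while 14 did not pass, where 38.6% of all tested genes passed (18.5% higher and 20.1% lower). The median log2 fold change was 0.26 over the 42 genes and -0.01 over all tested genes. With an allowance for GC content and length these medians were 0.21 and 0.02. The allowance was fitted to the deviation of each library from the mean of all 12 libraries. It therefore also removes differences between treatment groups that go with GC content or length, here and below. Without the allowance, the TGFβ change was higher the richer a transcript was in GC, with Spearman's rho of 0.519 over the members. Over all tested genes of known GC content rho was 0.244. The members had a median GC content of 51.4%, against 48.1% of those genes. The part of GC content in the TGFβ changes was not tested further. The groups did not overlap for 28 of the 42 genes, against 46.4% of all tested genes. By role, 7 of 10 cathepsins rose and 1 fell, 3 of 11 other hydrolases rose and 2 fell, all 3 non-enzymatic luminal proteins rose, 1 of 5 membrane proteins rose, TFEB and TFE3 rose while MITF fell, and 7 of 10 autophagy genes rose and 1 fell. Without the 4 libraries that stand apart 27 genes rose and 8 fell, where 45.3% of 20711 tested genes passed: CTSF, ARSB, SCARB2 and MCOLN1 joined those higher, CTSD, TPP1 and ATG5 joined those lower, and no call was lost. With an allowance for GC content and length 27 rose and 5 fell: HEXA, ARSB, ASAH1, LAMP2 and SCARB2 were then higher and CTSD lower, while TFE3 and LIPA no longer passed. In these bulk samples a change in the share of cells with a transcript and a change in its level per cell cannot be told apart.

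**Figure D2:**
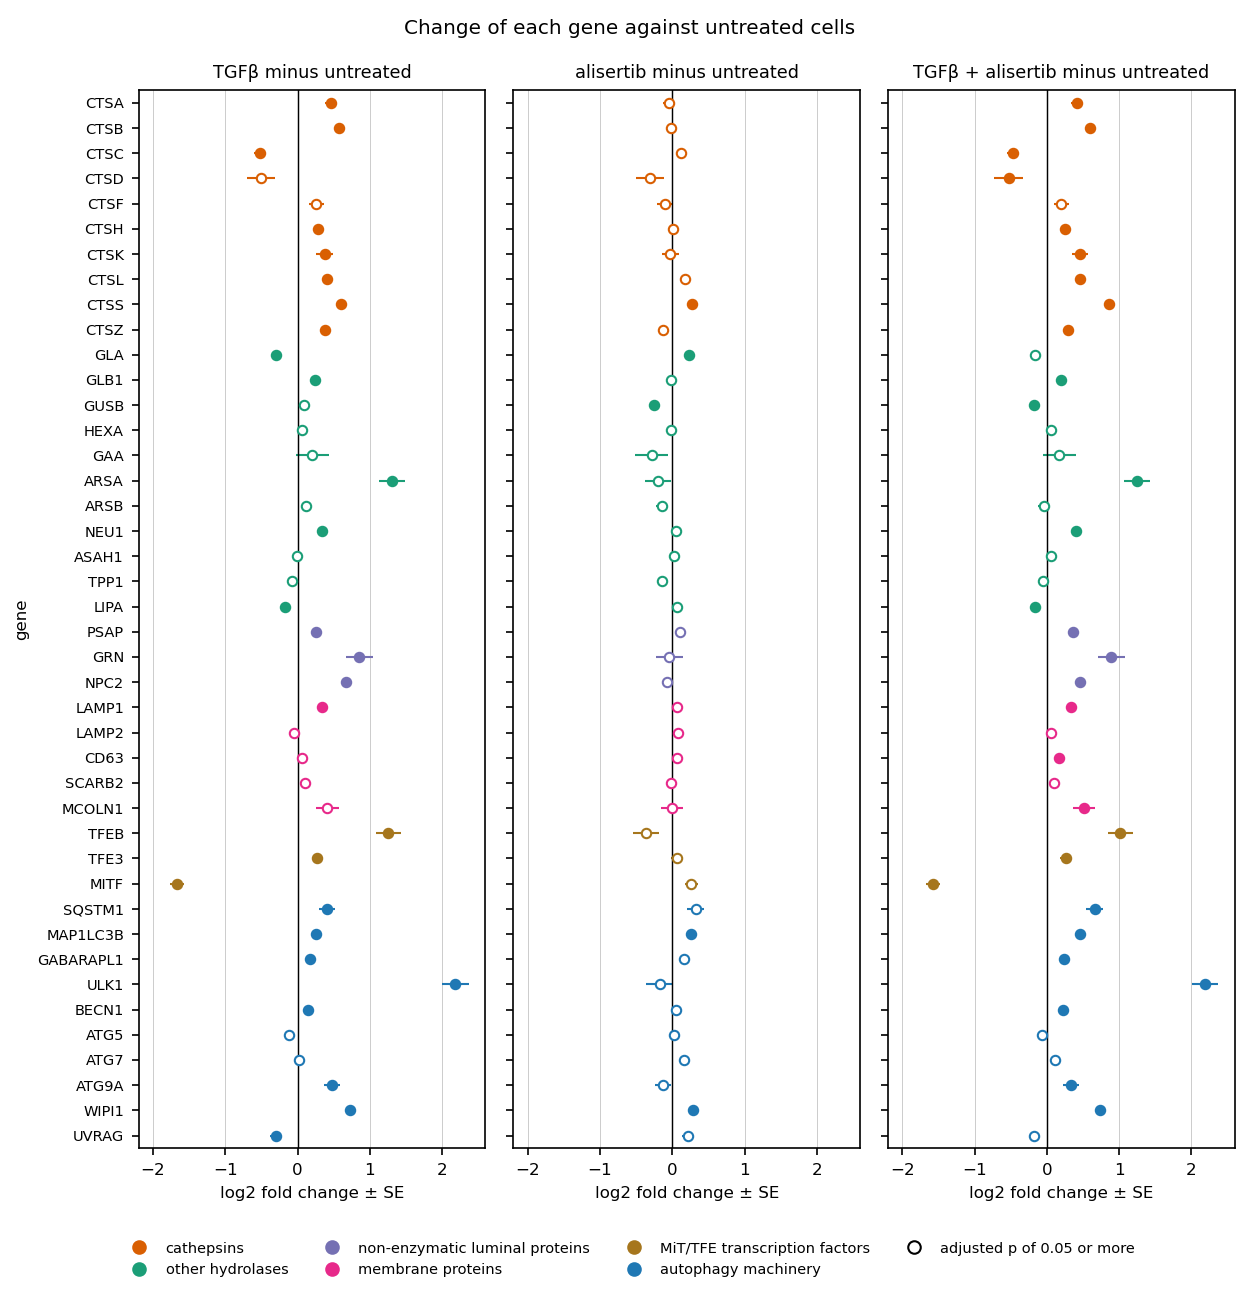
Log2 fold change ± SE of each gene against untreated cells (n = 3 libraries per group), for TGFβ, alisertib, and TGFβ with alisertib, coloured by role, with filled points at an adjusted p under 0.05. The panels with TGFβ are alike, with ULK1 at 2.18 and 2.19 and MITF at -1.67 and -1.58, and the panel of alisertib alone lies within 0.37 of zero.

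The change largest in size was that of ULK1 (ENSG00000177169, chr12:132379196-132407712 in hg19), the kinase that starts autophagosome formation. It had 30.2, 30.1 and 21.9 CPM in TGFβ libraries, against 4.80, 7.19 and 6.09 CPM in untreated libraries. Each TGFβ library lay far above all untreated ones, and TGFβ replicate 6 was the lowest of its group. The fold was 4.54, a log2 fold change of 2.18 ± 0.19 (SE, edgeR adjusted p = 2.82e-07). ULK1 passed in each of 13 alternative fits, with a lowest log2 fold change of 1.82. WIPI1, which reads a phosphoinositide on the growing autophagosome membrane, had 38.5, 41.2 and 44.1 CPM in TGFβ libraries, against 26.7, 24.7 and 23.3 CPM in untreated libraries, without overlap. Its log2 fold change was 0.73 ± 0.06 (SE, edgeR adjusted p = 3.79e-07). ATG9A, the membrane protein of autophagosome seed vesicles, had 133, 139 and 117 CPM in TGFβ libraries, against 75.2, 101 and 103 CPM in untreated libraries. All TGFβ values were higher, and untreated replicate 1 was well below its neighbours. The log2 fold change was 0.48 ± 0.11 (SE, edgeR adjusted p = 0.00319), and 0.23 in a fit that allows for GC content and length.

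The other autophagy genes moved less. SQSTM1, the cargo receptor also called p62, had 416, 417 and 362 CPM in TGFβ libraries, against 240, 335 and 327 CPM in untreated libraries. The groups did not overlap, but untreated replicate 1 set much of the distance: the log2 fold change of 0.41 ± 0.11 (SE, edgeR adjusted p = 0.0111) became 0.27 without that library (adjusted p = 0.0509) and 0.23 with allowance for GC content and length. MAP1LC3B, which codes for LC3B, rose by 0.25 ± 0.06 on the log2 scale. GABARAPL1, a relative of LC3B, rose by 0.17 ± 0.06, although its groups overlapped. BECN1, a subunit of the class III phosphoinositide kinase complex, rose by 0.15 ± 0.05. UVRAG, a partner of BECN1 in that complex, was the only autophagy gene of the set that fell, with 21.0, 20.9 and 21.4 CPM in TGFβ libraries, against 28.98, 25.8 and 23.4 CPM in untreated libraries. Its log2 fold change was -0.31 ± 0.08 (SE, edgeR adjusted p = 0.0082). ATG5 (-0.11 ± 0.06) and ATG7 (0.02 ± 0.05), both needed to attach LC3 to lipid, did not pass the test. With allowance for GC content and length the changes of GABARAPL1, BECN1 and UVRAG became 0.29, 0.28 and -0.19. The call of GABARAPL1 was lost without untreated replicate 2 or 3 or TGFβ replicate 5 or 6 (edgeR adjusted p of 0.0903 to 0.152). That of BECN1 was lost without untreated replicate 2 or 3 or any TGFβ replicate (0.0584 to 0.0901). Reads of MAP1LC3B can be shared with the near-identical MAP1LC3B2, which itself had 6.35 ± 0.264 CPM in TGFβ cells and 5.76 ± 0.815 CPM in untreated cells.

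Among cathepsins the cysteine protease CTSS rose most. It had 42.5, 41.8 and 43.8 CPM in TGFβ libraries, against 29.6, 26.7 and 27.9 CPM in untreated libraries, a log2 fold change of 0.60 ± 0.05 (SE, edgeR adjusted p = 3.23e-07). CTSB, a cysteine protease with endo- and exopeptidase activity, had 469, 475 and 442 CPM in TGFβ libraries, against 281, 326 and 325 CPM in untreated libraries (0.57 ± 0.06, edgeR adjusted p = 2.5e-06). CTSA, a serine carboxypeptidase that also protects NEU1 and GLB1, had 214, 225 and 205 CPM in TGFβ libraries, against 133, 170 and 166 CPM in untreated libraries (0.46 ± 0.09, edgeR adjusted p = 0.0006). In all 3 genes each TGFβ library exceeded each untreated one. CTSL, a broad endopeptidase, rose by 0.40 ± 0.06, CTSZ by 0.38 ± 0.04, the collagen-degrading CTSK by 0.37 ± 0.12 from a low level, and the aminopeptidase CTSH by 0.29 ± 0.06. The call of CTSK was lost without untreated replicate 2 or 3 or TGFβ replicate 4 (edgeR adjusted p of 0.0658 to 0.0931). With allowance for GC content and length, the changes of CTSA and CTSZ became 0.21 and 0.18, and those of CTSS, CTSB and CTSL were 0.76, 0.57 and 0.42.

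CTSC, a dipeptidyl peptidase that activates serine proteases of granulocytes, fell. It had 64.8, 61.8 and 65.4 CPM in TGFβ libraries, against 105, 88.3 and 82.9 CPM in untreated libraries, a log2 fold change of -0.52 ± 0.08 (SE, edgeR adjusted p = 6.33e-05). CTSD (chr11:1773982-1785222 in hg19) had 298, 308 and 230 CPM in TGFβ libraries, against 262, 456 and 472 CPM in untreated libraries. Untreated replicate 1 lay among the TGFβ libraries, and the log2 fold change of -0.51 ± 0.20 did not pass (SE, edgeR adjusted p = 0.0537). Without the 4 libraries that stand apart it was -0.61 ± 0.04 (SE, edgeR adjusted p = 3.85e-13), and that choice of libraries makes the SE and p-value too small. CTSF, a cysteine protease whose loss causes a neuronal storage disease, had a log2 fold change of 0.26 ± 0.10 and did not pass. It passed without the 4 libraries that stand apart (0.19 ± 0.05, edgeR adjusted p = 0.00177), and was 0.03 with allowance for GC content and length (adjusted p = 0.679).

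Of the other hydrolases only ARSA changed by more than 1.5-fold. ARSA (chr22:51061182-51066607 in hg19), the sulfatase that degrades the myelin lipid sulfatide, had 10.5, 10.6 and 8.48 CPM in TGFβ libraries, against 2.74, 4.46 and 4.78 CPM in untreated libraries. The TGFβ libraries lay clear of the untreated ones, with a log2 fold change of 1.30 ± 0.18 (SE, edgeR adjusted p = 4.06e-05). ARSA passed in each of 13 alternative fits, with a lowest log2 fold change of 0.93. The sialidase NEU1 had 107, 107 and 100 CPM in TGFβ libraries, against 71.8, 89.2 and 86.9 CPM in untreated libraries (0.34 ± 0.07, edgeR adjusted p = 0.00138). The β-galactosidase GLB1 had 134, 139 and 135 CPM in TGFβ libraries, against 116, 116 and 112 CPM in untreated libraries (0.25 ± 0.04, edgeR adjusted p = 0.000181). Neither NEU1 nor GLB1 overlapped between groups. The α-galactosidase GLA fell, with 40.9, 41.1 and 42.5 CPM in TGFβ libraries, against 56.7, 49.6 and 47.1 CPM in untreated libraries (-0.30 ± 0.06, edgeR adjusted p = 0.0014). LIPA, the acid lipase of the lysosome, had 81.0, 81.6 and 90.5 CPM in TGFβ libraries, against 98.7, 91.5 and 94.4 CPM in untreated libraries (-0.17 ± 0.05, edgeR adjusted p = 0.018). The LIPA groups were nearly adjacent. The call was lost without TGFβ replicate 4 or 5 (edgeR adjusted p of 0.0914 and 0.0844), and the change was -0.03 with allowance for GC content and length (adjusted p = 0.603).

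The remaining hydrolases did not pass: the glucuronidase GUSB (0.09 ± 0.06), the hexosaminidase subunit HEXA (0.06 ± 0.04), the glycogen-degrading glucosidase GAA (0.20 ± 0.23), the sulfatase ARSB (0.11 ± 0.07), the ceramidase ASAH1 (-0.01 ± 0.06) and the peptidase TPP1 (-0.07 ± 0.05). GAA had the widest spread of these, with 13.8, 13.7 and 11.2 CPM in TGFβ libraries, against 6.57, 13.2 and 13.8 CPM in untreated libraries, of which untreated replicate 1 was the low one. Cathepsins and other hydrolases together counted 10 higher and 3 lower of 21, with a median log2 fold change of 0.25. The autophagy machinery counted 7 higher and 1 lower of 10, with a median of 0.21. The medians lay close together, and the difference between these 2 lists was not tested.

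The 3 luminal proteins without enzyme activity rose. GRN (chr17:42422614-42430470 in hg19), the precursor of granulins, had 204, 207 and 158 CPM in TGFβ libraries, against 72.0, 120 and 122 CPM in untreated libraries. NPC2, which hands cholesterol to the membrane protein NPC1, had 281, 295 and 298 CPM in TGFβ libraries, against 190, 187 and 172 CPM in untreated libraries. PSAP had 937, 948 and 883 CPM in TGFβ libraries, against 702, 819 and 795 CPM in untreated libraries. None of the 3 overlapped, and the low GRN values were those of TGFβ replicate 6 and untreated replicate 1. Their log2 fold changes were 0.85 ± 0.19 for GRN (edgeR adjusted p = 0.00208), 0.67 ± 0.05 for NPC2 (edgeR adjusted p = 2.9e-08) and 0.26 ± 0.06 for PSAP (edgeR adjusted p = 0.00363). GRN passed in each of 13 alternative fits, with a lowest log2 fold change of 0.59.

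Membrane proteins moved little. LAMP1 had 174, 181 and 171 CPM in TGFβ libraries, against 131, 147 and 140 CPM in untreated libraries, without overlap (0.33 ± 0.06, edgeR adjusted p = 0.000295). LAMP2 (-0.05 ± 0.05), the tetraspanin CD63 (0.07 ± 0.04) and SCARB2 (0.10 ± 0.06), the receptor that carries glucocerebrosidase to the lysosome, did not pass. MCOLN1, the calcium channel of the lysosomal membrane, had 16.1, 15.5 and 12.2 CPM in TGFβ libraries, against 8.32, 12.7 and 11.8 CPM in untreated libraries. TGFβ replicate 6 fell within the untreated range, and the change of 0.41 ± 0.16 did not pass (SE, edgeR adjusted p = 0.0508). Without the 4 libraries that stand apart, replicate 6 among them, it passed (0.36 ± 0.07, edgeR adjusted p = 0.000187), and with allowance for GC content and length it was 0.14 (adjusted p = 0.0951).

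The 3 transcription factors of the set went in opposite directions. TFEB (chr6:41651716-41703997 in hg19) had 10.3, 10.9 and 8.82 CPM in TGFβ libraries, against 3.33, 4.41 and 4.82 CPM in untreated libraries, a log2 fold change of 1.26 ± 0.17 (SE, edgeR adjusted p = 4.48e-05). MITF (chr3:69788586-70017488 in hg19) had 4.39, 3.63 and 3.60 CPM in TGFβ libraries, against 12.7, 12.3 and 11.9 CPM in untreated libraries, a log2 fold change of -1.67 ± 0.10 (SE, edgeR adjusted p = 4.67e-09). TFE3 had 132, 136 and 122 CPM in TGFβ libraries, against 94.3, 116 and 113 CPM in untreated libraries, a log2 fold change of 0.27 ± 0.08 (SE, edgeR adjusted p = 0.0125). In TFEB and MITF the groups were widely separated, while those of TFE3 had a narrow gap between them. The TFE3 change was 0.06 with allowance for GC content and length (adjusted p = 0.203), and 0.24 without TGFβ replicate 5 (adjusted p = 0.0572). Per length, TFE3 was the most abundant of the 3 in untreated cells, at 23.4 ± 2.76 RPKM, against 1.58 ± 0.0279 RPKM for MITF and 0.689 ± 0.135 RPKM for TFEB. Melanocyte genes that MITF drives in pigment cells were near 0 throughout: TYR reached 0.107 CPM, MLANA 0.0775 CPM and PMEL 2.10 CPM.

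**Figure D3:**
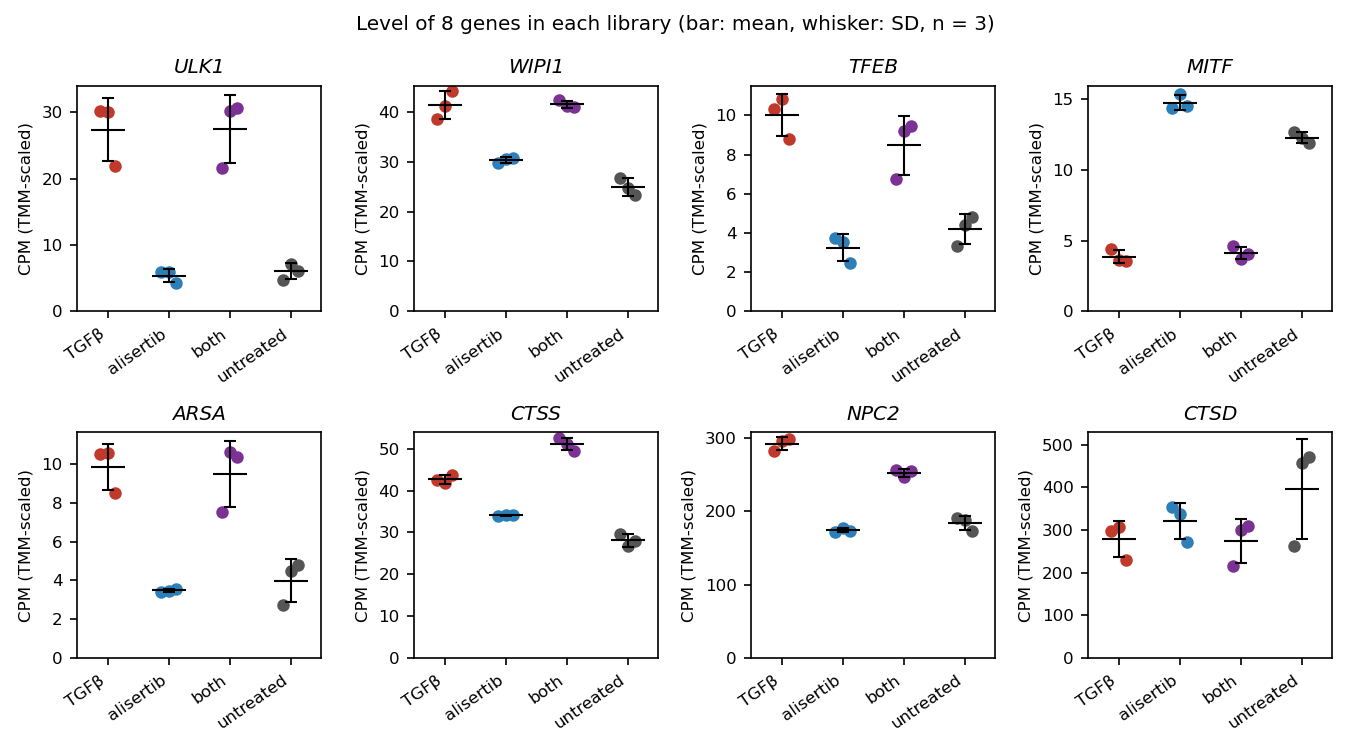
CPM of 8 genes in each library, with the mean (bar) and SD (whisker) of the 3 libraries of a group. ULK1 and TFEB are high in both groups with TGFβ and MITF is low there, CTSS is highest at 51.1 CPM with both agents, and the CTSD whisker is widest in untreated cells, where 1 library lies at 262 CPM.

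Because TFEB, TFE3 and MITF bind CACGTG, promoters were read for that sequence and for 3 longer forms that contain it: GTCACGTG, TCACGTGA, and CACGTG with GT before and AC after it. Both strands were read, and the forms overlap each other. The windows ran from 250 bases before to 50 after each start in RefSeq on GRCh38.p14, and 33 of the 42 genes were matched. CTSB, CTSK, CTSS, HEXA, ARSA, ASAH1, PSAP, LAMP2 and UVRAG were not matched. CACGTG stood in 9 of the 33 genes, which is 27.3%, against 8.77% of 27305 genes and 7.26% of 35116 promoters. GTCACGTG stood in 6 genes (18.2%, against 2.93% of genes), TCACGTGA in 4 (12.1%, against 1.18%) and the form flanked by GT and AC in 2, GAA and MCOLN1 (6.06%, against 0.421%). The 9 genes with CACGTG were CTSA, CTSD, CTSF, GAA, ARSB, NEU1, LAMP1, CD63 and MCOLN1, so all were hydrolases or membrane proteins. None of the 9 matched autophagy genes and none of the 3 factors had it in the window, which says only that these letters are not in these windows.

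Those of 5 genes with the sequence are printed, with CACGTG in capitals, beside the promoters of ULK1 and WIPI1, the autophagy genes that rose most with TGFβ and lack it. Each run gives the 250 bases before the start, 5′ to 3′ on the gene's strand.
CTSA (chr20:45891085-45891334, + strand): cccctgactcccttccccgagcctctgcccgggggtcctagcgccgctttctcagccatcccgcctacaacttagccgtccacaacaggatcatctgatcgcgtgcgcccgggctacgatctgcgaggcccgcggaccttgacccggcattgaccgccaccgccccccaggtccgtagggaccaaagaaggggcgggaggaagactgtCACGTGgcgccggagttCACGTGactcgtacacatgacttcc
CTSD (chr11:1763928-1764177, - strand): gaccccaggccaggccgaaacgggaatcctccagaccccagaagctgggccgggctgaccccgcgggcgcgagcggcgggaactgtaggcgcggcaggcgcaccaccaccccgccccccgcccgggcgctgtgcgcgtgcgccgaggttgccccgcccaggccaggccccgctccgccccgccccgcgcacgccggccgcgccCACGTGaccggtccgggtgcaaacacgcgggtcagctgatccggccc
GAA (chr17:80101331-80101580, + strand): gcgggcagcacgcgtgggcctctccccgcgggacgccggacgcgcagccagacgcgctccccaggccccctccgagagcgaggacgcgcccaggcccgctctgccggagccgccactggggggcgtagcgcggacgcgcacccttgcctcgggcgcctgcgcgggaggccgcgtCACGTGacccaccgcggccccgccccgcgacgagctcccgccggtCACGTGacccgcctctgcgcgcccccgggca
LAMP1 (chr13:113296989-113297238, + strand): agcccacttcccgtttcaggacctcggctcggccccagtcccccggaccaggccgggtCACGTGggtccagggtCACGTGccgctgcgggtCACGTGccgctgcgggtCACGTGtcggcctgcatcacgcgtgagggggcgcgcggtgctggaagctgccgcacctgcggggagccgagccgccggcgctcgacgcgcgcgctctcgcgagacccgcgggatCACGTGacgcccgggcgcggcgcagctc
MCOLN1 (chr19:7522374-7522623, + strand): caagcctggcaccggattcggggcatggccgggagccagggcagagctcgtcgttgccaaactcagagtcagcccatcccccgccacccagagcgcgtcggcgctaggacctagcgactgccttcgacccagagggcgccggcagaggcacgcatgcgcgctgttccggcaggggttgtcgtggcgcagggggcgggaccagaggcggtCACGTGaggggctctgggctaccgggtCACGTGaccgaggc
ULK1 (chr12:131894372-131894621, + strand): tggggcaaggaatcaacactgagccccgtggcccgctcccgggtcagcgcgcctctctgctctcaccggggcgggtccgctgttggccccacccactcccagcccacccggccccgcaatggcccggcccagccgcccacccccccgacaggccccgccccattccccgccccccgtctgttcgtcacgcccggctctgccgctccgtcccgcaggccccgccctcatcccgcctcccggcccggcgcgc
WIPI1 (chr17:68457497-68457746, - strand): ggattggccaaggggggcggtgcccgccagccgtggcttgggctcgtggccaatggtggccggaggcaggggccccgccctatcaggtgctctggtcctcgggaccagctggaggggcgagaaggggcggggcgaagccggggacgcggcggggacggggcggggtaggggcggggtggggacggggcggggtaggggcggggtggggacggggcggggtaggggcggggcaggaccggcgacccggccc
LAMP1 held 5 copies in this stretch, CTSA, GAA and MCOLN1 held 2 each, and CTSD held 1.

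The genes with and without the motif were counted by their response to TGFβ. Of the 9 genes with CACGTG, 3 rose (CTSA, NEU1 and LAMP1), none fell and 6 did not pass. Of the 24 matched genes without it, 15 rose, 4 fell and 5 did not pass. The difference between these counts was not tested. The median log2 fold change was 0.26 with the motif and 0.25 without it. ULK1 and TFEB, which rose most among the matched genes, were among those without it, as was MITF, which fell most. A match of these letters is a description and not a bound site.

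Alisertib alone changed few of the genes. Of the 42 genes, 4 rose and 1 fell, where 6.74% of all tested genes passed (3.55% higher and 3.19% lower). The median log2 fold change was 0.02, against -0.01 over all tested genes, and the groups did not overlap for 11 of the 42, against 21.6% of all tested genes.

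CTSS had 33.9, 34.2 and 34.1 CPM in alisertib libraries, against 29.6, 26.7 and 27.9 CPM in untreated libraries (0.28 ± 0.05, edgeR adjusted p = 0.00516). WIPI1 had 29.6, 30.5 and 30.8 CPM in alisertib libraries, against 26.7, 24.7 and 23.3 CPM in untreated libraries (0.28 ± 0.06, edgeR adjusted p = 0.0172). MAP1LC3B had 98.95, 104 and 105 CPM in alisertib libraries, against 94.6, 82.8 and 79.7 CPM in untreated libraries (0.26 ± 0.07, edgeR adjusted p = 0.03). In all 3 every alisertib library was higher than every untreated one, and untreated replicate 1 came nearest. GLA had 59.7, 58.5 and 61.4 CPM in alisertib libraries, against 56.7, 49.6 and 47.1 CPM in untreated libraries (0.23 ± 0.06, edgeR adjusted p = 0.0428). GUSB, which removes glucuronic acid from glycosaminoglycans, had 64.3, 61.8 and 60.1 CPM in alisertib libraries, against 68.8, 76.4 and 75.6 CPM in untreated libraries (-0.25 ± 0.06, edgeR adjusted p = 0.0199). Neither overlapped, again with untreated replicate 1 nearest to the alisertib group. In a fit of only these 2 groups none of the 5 passed, with edgeR adjusted p-values between 0.0608 for CTSS and 0.166 for GLA. The CTSS call held without any single library. Those of GLA and MAP1LC3B were lost without untreated replicate 2 or 3 or any alisertib replicate, at up to 0.120 and 0.102. Those of WIPI1 and GUSB were lost without untreated replicate 2 or 3 or alisertib replicate 8 or 9, at up to 0.0667 and 0.107.

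The autophagy genes stood mostly above zero, while the hydrolases lay near the level of all tested genes. With alisertib 8 of the 10 autophagy genes had a log2 fold change above 0, with a median of 0.17, and 2 passed. Of the 21 cathepsins and other hydrolases 8 were above 0, with a median of -0.02, and 2 rose and 1 fell. Over all tested genes 9805 of 20571 were above 0, with a median of -0.01. SQSTM1 had 402, 380 and 345 CPM in alisertib libraries, against 240, 335 and 327 CPM in untreated libraries. The groups did not overlap, yet the change of 0.32 ± 0.11 did not pass (SE, edgeR adjusted p = 0.12). The difference between these 2 lists was not tested.

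The 4 libraries that stand apart weighed most on this comparison. They were left out for their deviation in these data, so p-values of the fit without them are too small. Without them, 2 libraries were left in each group, 12 of the 42 genes rose and 11 fell, and 24.5% of 20711 tested genes passed (11.0% higher and 13.5% lower). In that fit 6 of the 10 autophagy genes rose (SQSTM1, MAP1LC3B, GABARAPL1, ATG7, WIPI1 and UVRAG) and ATG9A fell, with log2 fold changes of 0.25 ± 0.03 for SQSTM1, 0.32 ± 0.04 for MAP1LC3B and -0.23 ± 0.04 for ATG9A. Of the 21 cathepsins and other hydrolases 4 rose (CTSC, CTSL, CTSS and GLA) and 8 fell (CTSA, CTSD, CTSF, CTSZ, GUSB, GAA, ARSA and TPP1). CTSD had 354 and 337 CPM in alisertib replicates 7 and 8, against 456 and 472 CPM in untreated replicates 2 and 3 (-0.42 ± 0.04, edgeR adjusted p = 1.15e-08), whereas over all 12 libraries it was -0.30 ± 0.20 (adjusted p = 0.437). GAA was at -0.43 ± 0.07 and ARSA at -0.42 ± 0.09 without those libraries. The GC-rich members ULK1, GRN and MCOLN1 were at -0.16 ± 0.08, -0.16 ± 0.04 and -0.08 ± 0.07 in that fit. Of these GRN passed (edgeR adjusted p = 0.00196), and ULK1 (adjusted p = 0.145) and MCOLN1 (adjusted p = 0.465) did not.

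GC content moved with these calls. The 11 genes that fell in the fit of 8 libraries had a median GC content of 60.1% (range 50.7% to 66.0%), the 12 that rose had 48.5% (37.7% to 58.0%) and the 19 that did not pass had 51.2%. With all 12 libraries and an allowance for GC content and length, 13 of the 42 genes rose and 3 fell. Of the cathepsins and other hydrolases 4 rose and 2 fell in that fit (GUSB and TPP1), and the same 6 autophagy genes rose while none fell. Under that allowance the difference of CTSD was -0.18, that of GAA -0.12 and that of ARSA -0.05, and none of the 3 passed. The part of GC content in the lower values of the hydrolases was not tested beyond this.

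**Figure D4:**
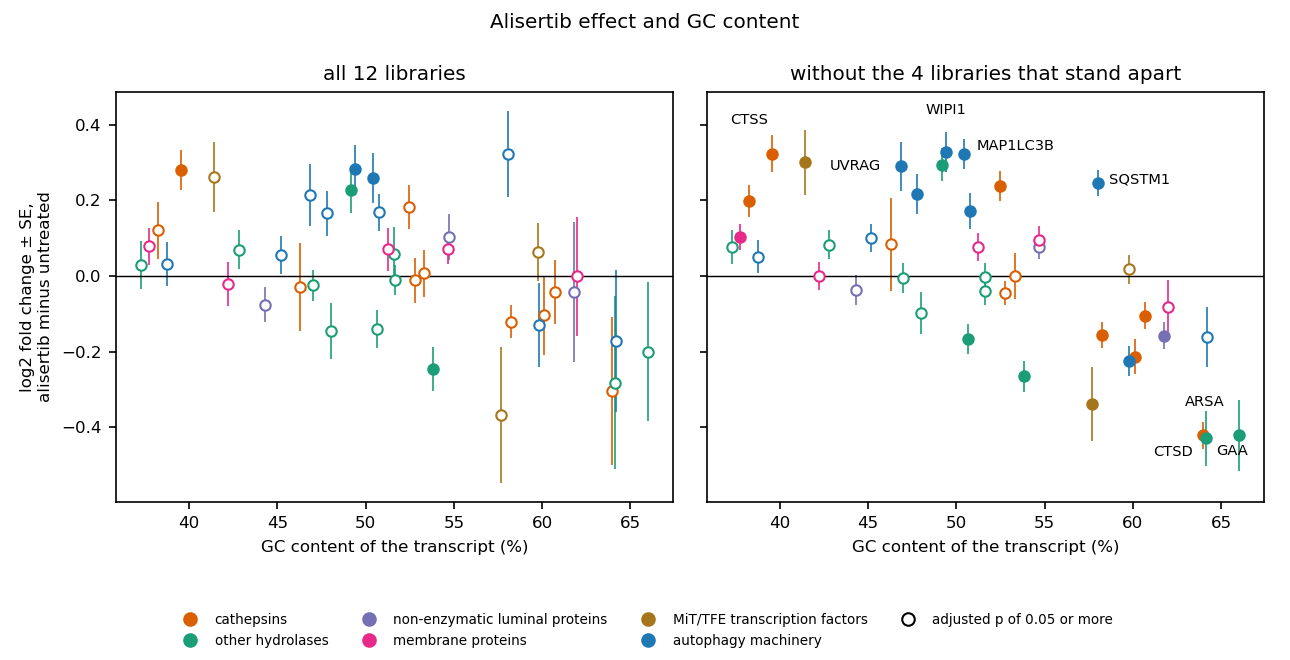
Log2 fold change ± SE of each gene, alisertib minus untreated, against the GC content of its transcript, over all 12 libraries (left) and without the 4 that stand apart (right). On the right CTSD, GAA and ARSA lie between -0.42 and -0.43, and ULK1 lies at -0.16. The filled autophagy genes WIPI1, MAP1LC3B, UVRAG and SQSTM1 lie between 0.25 and 0.33 there.

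Cells given both agents resembled cells given TGFβ. Against untreated cells 25 of the 42 genes rose and 5 fell, where 39.7% of all tested genes passed (19.4% higher and 20.3% lower). The median log2 fold change was 0.25, and the groups did not overlap for 31 of the 42 genes, against 45.7% of all tested genes. ULK1 had 21.6, 30.2 and 30.6 CPM with both agents, against 4.80, 7.19 and 6.09 CPM in untreated libraries (2.19 ± 0.19, edgeR adjusted p = 2.82e-07). CTSS had 52.5, 51.2 and 49.5 CPM with both agents, the highest of the 4 groups, against 29.6, 26.7 and 27.9 CPM in untreated libraries (0.86 ± 0.05, edgeR adjusted p = 6.87e-09). SQSTM1 had 416, 501 and 507 CPM with both agents, against 240, 335 and 327 CPM in untreated libraries (0.66 ± 0.11, edgeR adjusted p = 0.000322). None of the 3 overlapped, and combination replicate 10 was the lowest of its group for ULK1 and SQSTM1. MCOLN1 (0.51 ± 0.16) and CD63 (0.17 ± 0.04) also rose, and CTSD (-0.53 ± 0.20), CTSC (-0.47 ± 0.08), GUSB (-0.18 ± 0.06), LIPA (-0.16 ± 0.05) and MITF (-1.58 ± 0.10) fell. Of 13 alternatives the call of CTSD held in 5, that of MCOLN1 in 8, that of GUSB in 9 and that of LIPA in 10, with edgeR adjusted p-values of up to 0.235, 0.102, 0.0917 and 0.503. The CTSD call was lost without untreated replicate 2 or 3 or any combination replicate, that of MCOLN1 without untreated replicate 1 or combination replicate 11 or 12, that of GUSB without untreated replicate 2 or 3 or combination replicate 10, and that of LIPA without untreated replicate 1 or combination replicate 11. With allowance for GC content and length CTSD was at -0.80, MCOLN1 at 0.29 and LIPA at -0.03. In the fit of 8 libraries 28 genes rose and 5 fell, where 47.4% of tested genes passed, with CTSF, SCARB2 and ATG7 added. The comparisons with untreated cells share those libraries, so each gives its own values only.

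In the presence of TGFβ, alisertib changed 3 of the 42 genes, where 2.08% of all tested genes passed (1.19% higher and 0.89% lower). The groups did not overlap for 10 of the 42, against 20.4% of all tested genes. CTSS rose, with 52.5, 51.2 and 49.5 CPM with both agents, against 42.5, 41.8 and 43.8 CPM with TGFβ alone (0.26 ± 0.05, edgeR adjusted p = 0.0181). GUSB fell, with 61.2, 66.8 and 67.0 CPM with both agents, against 77.3, 81.8 and 75.4 CPM with TGFβ alone (-0.27 ± 0.06, edgeR adjusted p = 0.0272). NPC2 fell, with 256, 246 and 254 CPM with both agents, against 281, 295 and 298 CPM with TGFβ alone (-0.21 ± 0.05, edgeR adjusted p = 0.0295). The groups did not overlap in any of the 3. The calls of GUSB and NPC2 were lost without any 1 of the 6 libraries, at edgeR adjusted p-values of up to 0.149 and 0.139. That of CTSS was lost without any of them but TGFβ replicate 6, at up to 0.104. MAP1LC3B had 123, 113 and 118 CPM with both agents, against 97.5, 100 and 109 CPM with TGFβ alone, and did not pass (0.21 ± 0.06, edgeR adjusted p = 0.146). It passed without the 4 libraries that stand apart (0.22 ± 0.04, edgeR adjusted p = 0.000807), as did SQSTM1 (0.27 ± 0.03, edgeR adjusted p = 7.14e-06). In that fit 5 genes rose and 3 fell, and 6.92% of tested genes passed.

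In the presence of alisertib, TGFβ changed 28 of the 42 genes, 23 higher and 5 lower, where 38.4% of all tested genes passed (19.4% higher and 19% lower). The groups did not overlap for 32 of the 42, against 50.3% of all tested genes. In the fit of 8 libraries 27 rose and 6 fell, where 48.8% of tested genes passed, with GAA, ARSB, SCARB2 and TFE3 added as higher and CTSD as lower. This comparison shares no library with that of TGFβ against untreated cells, and the 2 sets of log2 fold changes can be set beside each other. Across the 42 genes they correlated with Pearson's r of 0.985 and Spearman's rho of 0.962, against 0.856 and 0.791 across all tested genes, and 39 of the 42 had the same sign. ULK1 had 2.36 ± 0.19 with alisertib present and 2.18 ± 0.19 without it, TFEB 1.39 ± 0.18 and 1.26 ± 0.17, ARSA 1.45 ± 0.18 and 1.30 ± 0.18, and MITF -1.84 ± 0.10 and -1.67 ± 0.10. WIPI1 had 0.45 ± 0.06 with alisertib present and 0.73 ± 0.06 without it. The 42 genes are not independent of each other, and genes of like GC content share the deviation of the 4 libraries. For alisertib, the differences with TGFβ present and without it correlated with r of 0.776 and rho of 0.784 across the 42 genes, against 0.296 and 0.411 across all tested genes.

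**Figure D5:**
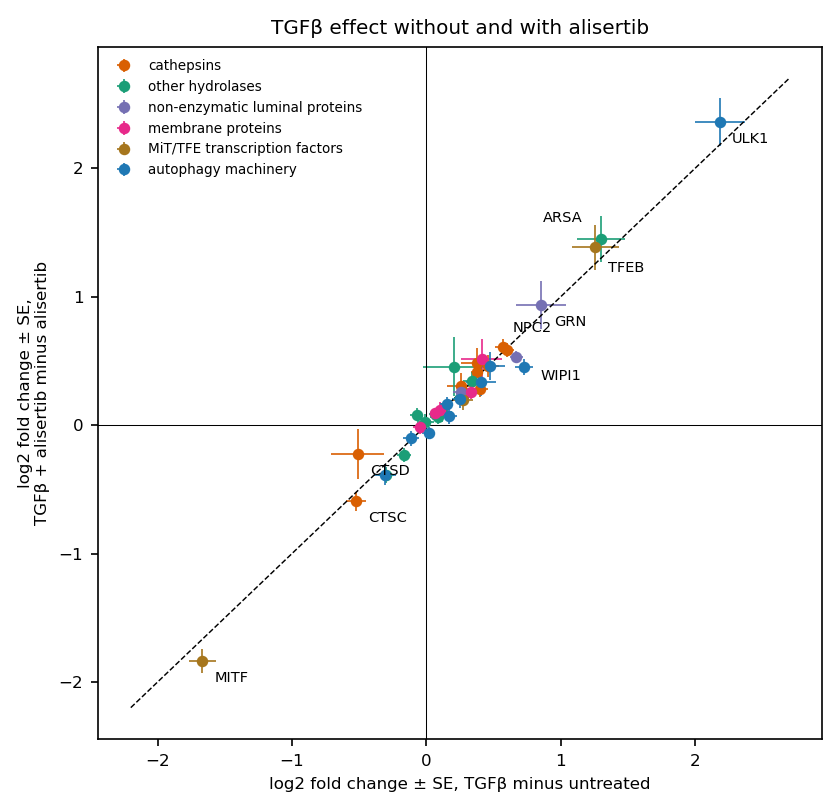
Log2 fold change ± SE of TGFβ for each of the 42 genes, in cells with alisertib (TGFβ with alisertib minus alisertib, y axis) and without it (TGFβ minus untreated, x axis), with a dashed line where both are equal. The points follow the line from MITF at -1.67 and -1.84 to ULK1 at 2.18 and 2.36, and WIPI1 lies below it.

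The interaction, the alisertib difference with TGFβ minus that without it, passed for none of the 42 genes in edgeR, where 0.282% of all tested genes passed, and DESeq2 also called none. At an unadjusted p under 0.05 there was 1 gene in each tool. In edgeR it was WIPI1: alisertib differed from no treatment by 0.28 ± 0.06, and both agents differed from TGFβ alone by 0.01 ± 0.06, an interaction of -0.28 ± 0.09 (SE, edgeR adjusted p = 0.415). Without the 4 libraries that stand apart 6 genes passed, where 3.59% of tested genes did. CTSD (0.43 ± 0.05), GAA (0.46 ± 0.10), GRN (0.24 ± 0.05) and TPP1 (0.22 ± 0.06) were then positive, and CTSL (-0.20 ± 0.06) and WIPI1 (-0.29 ± 0.07) negative.

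Other genes of the same pathways were counted from 8 lists, to be read against the 18.5% of all tested genes that rose and the 20.1% that fell with TGFβ. With TGFβ, 14 of 43 genes listed as further lysosomal hydrolases rose and 9 fell, among the latter the channel TPCN1, which is no enzyme. In the same comparison 9 of 26 further membrane proteins rose and 7 fell. For the proton pump (V-ATPase) 5 of 23 subunits rose and 5 fell, and 4 of 18 genes of enzyme sorting rose and 3 fell. Of 33 tested further autophagy genes 14 rose and 4 fell, of 11 autophagy receptors 3 rose and 2 fell, and of 20 genes of mTORC1, Rag and Ragulator 3 rose and 2 fell. Of 7 tested genes of cystatin-type inhibitors, a family that inhibits cysteine cathepsins, 5 rose and 1 fell. The medians ran from -0.08 for the proton pump to 0.14 for the further autophagy genes, and the cystatins stood at 0.68. With alisertib, 3 of 7 tested cystatin-type genes rose, and all 7 had a log2 fold change above 0. Of 26 further membrane proteins 3 rose. No list had more than 3 of its genes past the test in either direction, where 3.55% of all tested genes rose and 3.19% fell.

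Among the genes of these lists that passed and averaged at least 5 CPM, those with large changes are given here. Genes that did not pass or lay under that level reached -3.20 among the cystatins, -1.53 among the hydrolases and -1.45 among the membrane proteins with TGFβ, and 1.88 among the hydrolases with alisertib. FUCA1, the fucosidase of the lysosome, had 34.7 ± 2.13 CPM with TGFβ and 93.4 ± 4.56 CPM in untreated cells (SD, n = 3 each), a log2 fold change of -1.43 ± 0.07. LGMN, an asparaginyl protease that processes cathepsins, had 90.5 ± 0.568 CPM with TGFβ and 53.1 ± 2.82 CPM in untreated cells, a log2 fold change of 0.77 ± 0.05. CST1, a secreted cystatin, had 66.1 ± 0.259 CPM with TGFβ and 9.07 ± 1.12 CPM in untreated cells, a log2 fold change of 2.86 ± 0.08. CST6, another secreted cystatin, had 1.75 ± 0.18, and CST4 had 0.88 ± 0.12. CLN8, which helps lysosomal enzymes leave the endoplasmic reticulum, had 1.10 ± 0.09, and GNPTG, a subunit of the enzyme that makes the mannose 6-phosphate tag, had 0.59 ± 0.14. VMP1, an endoplasmic reticulum protein needed for autophagosome formation, had 0.68 ± 0.05, and the WIPI relative WDR45 had 0.63 ± 0.09. Among mitochondrial receptors BNIP3L rose (0.45 ± 0.06) and BNIP3 fell (-0.43 ± 0.05). The channel TPCN1, which the hydrolase list holds although it is no enzyme, fell (-0.93 ± 0.11), and LAPTM5, CLCN7 and SIDT2 led the rising membrane proteins, at 0.79 ± 0.05, 0.62 ± 0.20 and 0.59 ± 0.10. With alisertib the cystatins CST1 and CST4 rose by 0.91 ± 0.08 and 0.52 ± 0.12. LAPTM5 rose by 0.52 ± 0.05, ATG4A by 0.41 ± 0.08 and CD68 by 0.35 ± 0.09, and ATG16L2 (-0.59 ± 0.16), ULK2 (-0.28 ± 0.06) and HGSNAT (-0.27 ± 0.05) fell.

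Several of these genes are also expressed by macrophages, so leukocyte and macrophage markers were read. Their summed level over 12 genes was 122 to 137 CPM with TGFβ, 68.4 to 71.9 CPM with alisertib, 129 to 148 CPM with both and 47.4 to 55.2 CPM in untreated cells. CSF1R (7.72 to 63.9 CPM) and LAPTM5 (38.2 to 92.6 CPM) carried that sum, and CD14 was read at 0.639 to 2.90 CPM. The other 9 genes stayed at or below 0.227 CPM in every library. Of these, the defining genes PTPRC, AIF1, FCGR3A, CD163 and CD3E stayed at or below 0.180 CPM, and TYROBP was at 0 in all 12, with no read in any.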

How the data were processed

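RNA came from a miRNeasy extraction and libraries from a TruSeq RNA v2 kit, per the labels' protocols, and that kit does not mark the strand. The tools were TopHat, featureCounts of Subread and bcl2fastq, with the build hg19, per the submitters' processing notes. Versions and settings are not given in the sources used here, nor is the annotation. The authors deposited whole-number read counts per gene, without normalisation, and RPKM values of the same libraries. Their RPKM denominators were 1.10 to 1.11 times the total count.

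The counts were tested with edgeR 4.0.16 (R 4.3.3). The filter filterByExpr left 20571 genes, TMM scaled the libraries, and all 12 libraries entered 1 robust quasi-likelihood fit with 8 residual degrees of freedom. Adjusted p-values are from that test with Benjamini-Hochberg adjustment over all tested genes, and a gene that rose or fell had an adjusted p under 0.05. SE is the size of the log2 fold change over the square root of F. Replicate numbers run through the series, so libraries were not paired. GC content, from GENCODE v29 transcripts, was found for 19649 tested genes and all 42 members. An offset for GC content and length, a fit without the 4 libraries that stand apart, RLE size factors, DESeq2 1.42.0, no filter, only the groups compared, a residual component as covariate, and leaving out each library were the alternatives. The offset was fitted to deviations from the mean of all 12 libraries, so it cannot separate library bias from group differences along GC content or length. The fit was also run on simulated counts. These held no library that deviates along GC content, so that run says nothing about the 4 libraries that stand apart.

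The members and pathway lists were chosen with earlier results of these data known. Every member is named. Per pathway list, up to 3 called genes of the largest change with a mean of at least 5 CPM were eligible to be named. Counting depth per gene comes from the totals given above, and intervals cover the spread between libraries only.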

Additional observations from a re-analysis of the deposited data

How the results depend on the processing

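No paired analysis was possible because each replicate number is used only once, so no group shares one with another. Of the 42 members, calls held under all alternatives for 22 of 28 with TGFβ, 23 of 30 with both agents against untreated cells, 20 of 28 for TGFβ in the presence of alisertib, none of 5 with alisertib and none of 3 for alisertib in the presence of TGFβ. With both agents against untreated cells the calls lost somewhere were ATG9A, CTSD, CTSZ, GUSB, LIPA, MCOLN1 and TFE3. For TGFβ in the presence of alisertib they were ATG9A, BECN1, CTSF, CTSH, LIPA, MAP1LC3B, MCOLN1 and SQSTM1. Without the 4 libraries that stand apart the counts were 27 higher and 8 lower with TGFβ, 12 and 11 with alisertib, 5 and 3 for alisertib with TGFβ present, and 4 and 2 for the interaction. With the offset for GC content and length they were 13 and 3 with alisertib, 4 and 2 with TGFβ present, and 0 and 1 for the interaction. With the residual component they were 13 and 8, 7 and 6, and 1 and 1. That component was taken from the deviations within groups in these same counts. Fitting it lowers the spread, so its p-values are too small and its calls are description only. In a fit of only the 2 groups, alisertib gave 0 and 0 calls, with 11 members at an unadjusted p under 0.05, and both agents against untreated cells gave 3 lower. Leaving out 1 library at a time gave 1 to 9 higher and 0 to 4 lower with alisertib, 3 to 5 lower with both agents, and 0 to 1 higher and 0 to 0 lower for alisertib with TGFβ present. The 9 and 4 with alisertib came without untreated replicate 1. Under the offset for GC content and length 3 differences changed sign and passed: ASAH1 with TGFβ at 0.14, LAMP2 with TGFβ at 0.090 and LAMP2 with TGFβ in the presence of alisertib at 0.087. The cause was not tested. The median of all tested genes moved by less than 0.1 (log2) under every scaling.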
